A study of Mus musculus with 8 samples.

Results

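The genes described here encode the nuclear-encoded subunits of respiratory complexes II, III, IV and V, with the electron carrier cytochrome c, in single mouse embryos labelled as lacking the 3 TET enzymes and in Control embryos. They were chosen by symbol alone, as every row of the deposited table that begins with Cox and a digit from 4 to 8, with Uqcr or with Atp5, or that reads Sdha, Sdhb, Sdhc, Sdhd, Cyc1 or Cycs. The rule found 49 of 21182 symbols. Of these, 4 belong to complex II, 9 to complex III, 1 is cytochrome c, 16 belong to complex IV and 15 to complex V. The other 4 share a prefix without being subunits, namely Cox4nb, Atp5s, Atp5sl and Cox7a2l. Subunits that go by other symbols were not included, and the protein genes of the mitochondrial genome were not analysed here.

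The series holds 4 embryos labelled Tet1/2/3 TKO (TKO-labelled embryos) and 4 Control embryos, all whole C57BL/6 embryos of embryonic day E6.75 lysed singly. SMARTer cDNA of each embryo was sequenced as a Nextera XT library. The headings of the table call the Control embryos 123WT. How the 3 alleles were made, any other allele of the Control embryos, and the litter, sex and date were not given in the sources. Values are RPKM, in which the reads of a gene are divided by its length in kilobases and by the read total, and embryo numbers are the replicate numbers of the labels.

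The respiratory chain of the inner mitochondrial membrane passes electrons from succinate, through complex II, and from other donors to ubiquinone, then through complex III, cytochrome c and complex IV to oxygen. Complex V, the ATP synthase, uses the proton gradient made by complexes I, III and IV to make ATP. Complexes III to V combine large catalytic or core proteins with many small proteins of the membrane or the complex's rim, and each also contains proteins encoded in the mitochondrial genome, as complex II does not. Around gastrulation the mouse epiblast divides fast and relies strongly on glycolysis, while visceral endoderm cells are rich in mitochondria.

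Tet1 did not have lower values in the TKO-labelled embryos, but stood at 15.3, 9.50, 9.21 and 11.7 RPKM in TKO-labelled embryos 1 to 4, against 5.04, 5.25, 4.93 and 5.76 RPKM in Control embryos 1 to 4 (log2 difference 0.97, limma adjusted p = 0.103). Tet2 and Tet3 averaged 0.784 and 1.38 RPKM in TKO-labelled, against 0.725 and 1.85 RPKM in Control embryos. Tet3 was at 1.48, 1.22, 1.68 and 1.14 RPKM in TKO-labelled and 1.80, 1.79, 1.73 and 2.08 RPKM in Control embryos. All TKO-labelled values of Tet3 lay below all Control values (log2 difference -0.265, limma adjusted p = 0.297, exact permutation p = 0.0286). RPKM over a whole gene does not tell whether some of its exons are missing, so every direction given here rests on the label. Depth estimated from the smallest values was 9.9, 14.2, 19.0 and 11.7 M reads in TKO-labelled embryos 1 to 4, against 12.4 to 16.4 M reads in Control embryos. The summed markers of parietal endoderm were 166, 441, 572 and 381 RPKM in TKO-labelled embryos 1 to 4 and 100.1 to 198 RPKM in Control embryos. All 8 genes had positive differences, but the sum of TKO-labelled embryo 1 lay inside the Control range. Epiblast markers summed to 811, 466, 396 and 618 RPKM in TKO-labelled embryos 1 to 4 and 388 to 538 RPKM in Control embryos. Those of visceral endoderm summed to 757 to 944 RPKM in TKO-labelled and 362 to 1247 RPKM in Control embryos. Those of extraembryonic ectoderm summed to 85.6 to 127 RPKM in TKO-labelled and 90.2 to 143 RPKM in Control embryos. Ectoplacental cone markers summed to 10.6, 4.51, 125 and 28.1 RPKM in TKO-labelled embryos 1 to 4 and 10.9 to 28.1 RPKM in Control embryos. Markers of maternal decidua summed to 13.2 to 371 RPKM in TKO-labelled and 2.59 to 376 RPKM in Control embryos. Embryonic haemoglobin Hbb-y was at 0 in all 8. In whole embryos a smaller share of cells of one type cannot be told apart from less RNA per cell, and the part of these tissues in the values below was not tested.

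Most of the subunit genes were highly expressed in all 8 embryos. The highest was Cox4i1, the regulatory subunit 4 of cytochrome c oxidase, at a mean of 1031 RPKM over the 8 embryos. It was followed by Atp5g3, a c subunit of the ATP synthase rotor, at 966 RPKM, and by the small complex III subunit genes Uqcrb (817 RPKM) and Uqcrh (807 RPKM). Complex II, which sits in both the citric acid cycle and the respiratory chain, was lower, with its 4 subunit genes between 52.0 RPKM (Sdhc) and 203 RPKM (Sdhd). At the other end Cox4i2, Cox6a2 and Cox8c, isoforms known from lung, heart and muscle or testis, were at or near 0. Cox7b2, also known from testis, was at 0 to 2.41 RPKM. Those 4 did not reach 1 RPKM in 4 embryos, so 45 members entered the test with 10451 genes in all.

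No member differed between the groups past an adjusted p of 0.05 (limma with Benjamini-Hochberg adjustment over all tested genes), a threshold that 0.00957% of all tested genes passed. At an unadjusted limma p under 0.05, 6 members (13.3%) had higher and 8 members (17.8%) lower values in TKO-labelled embryos. Over all tested genes the same p was reached by 13.9% with higher and by 3.6% with lower values. TKO-labelled and Control values were fully separated in 5 members with higher and 3 with lower TKO-labelled values, or 11.1% and 6.67% of those tested. Over all tested genes these shares were 7.55% and 1.86%. On this scale the share of members with higher values lay near that of all genes at the unadjusted p, and the share with lower values lay above it.

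The median log2 difference was -0.15 over the members, with 18 positive and 27 negative. Over all 10451 tested genes it was 0.09, with 6949 positive and 3502 negative. The members' differences run from -0.59 to 0.66 on the log2(RPKM + 1) scale. The counts depend on the scaling. After median-ratio scaling, which brought the median of all genes to 0.01, 4 members had higher and 20 lower values at the unadjusted p (8.89% and 44.4%), against 7.41% and 7.18% of all tested genes. The 8 members whose groups did not overlap were Uqcrc1, Uqcrc2, Atp5a1, Atp5b and Atp5c1 with higher values, and Uqcr11, Uqcrh and Cox7a1 with lower values in TKO-labelled embryos. The exact two-sided permutation p of each of these 8 was 0.0286, the smallest that 4 against 4 embryos can give.

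**Figure D1:**
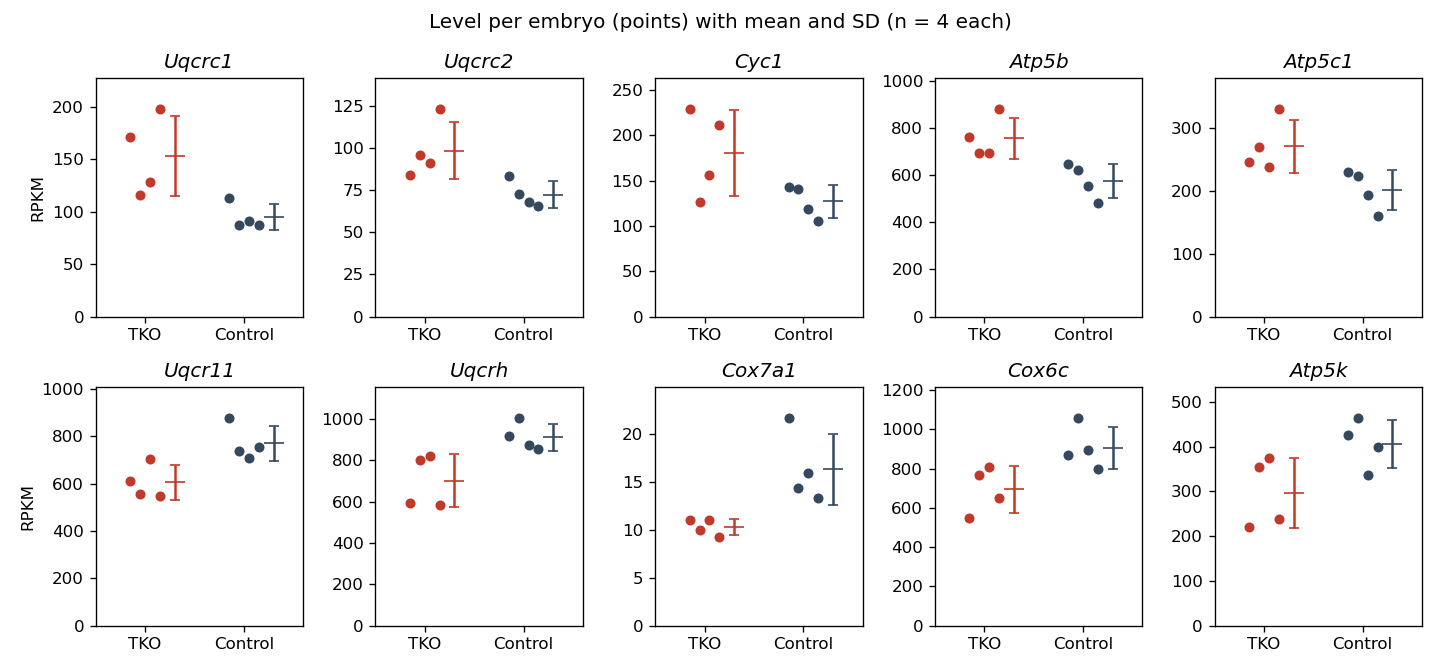
RPKM (y axis, from 0) of 10 members in 4 TKO-labelled (red) and 4 Control (dark blue) embryos, with each embryo as a point in label order and the mean and SD beside it. The upper row shows genes of long coding sequence, higher in TKO-labelled embryos, and the lower row genes of short coding sequence, lower in them. Cyc1, Cox6c and Atp5k overlap between the groups and the other 7 do not.

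Promoter sequences are shown for the 4 members that stand for the directions above, Uqcrc1 and Atp5b with higher and Uqcr11 and Cox7a1 with lower values. Each stretch is the 150 bases before the gene's annotated start in RefSeq on GRCm38.p6, written 5′ to 3′ on the gene's own strand. They lie at chr9:108936498-108936647, plus strand, at chr10:128083157-128083306, plus strand, at chr10:80406822-80406971, minus strand, and at chr7:30184021-30184170, plus strand. Capitals mark the matches, on either strand, to the motifs listed after the sequences.

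Uqcrc1: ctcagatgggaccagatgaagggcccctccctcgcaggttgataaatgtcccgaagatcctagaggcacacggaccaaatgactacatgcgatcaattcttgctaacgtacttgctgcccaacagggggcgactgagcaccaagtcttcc

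Atp5b: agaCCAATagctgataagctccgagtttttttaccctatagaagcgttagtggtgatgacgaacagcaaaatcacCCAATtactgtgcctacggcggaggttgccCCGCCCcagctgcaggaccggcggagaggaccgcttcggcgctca

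Uqcr11: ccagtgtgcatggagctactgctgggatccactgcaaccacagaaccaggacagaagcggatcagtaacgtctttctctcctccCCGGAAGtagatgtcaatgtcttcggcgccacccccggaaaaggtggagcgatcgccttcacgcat

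Cox7a1: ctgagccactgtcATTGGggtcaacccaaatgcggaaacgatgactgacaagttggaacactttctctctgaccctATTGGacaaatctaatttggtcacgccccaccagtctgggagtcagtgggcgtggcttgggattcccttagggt

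The Atp5b stretch holds a pair of CCAAT boxes and a GC box, that of Cox7a1 holds CCAAT boxes on the other strand, and that of Uqcr11 holds an ETS motif. The Uqcrc1 stretch has none of the motifs searched. The motifs, searched on both strands in windows of 300 bases (250 before and 50 after the start), were the core GCATGCG of NRF1, CCGGAAG of the ETS factors to which GABPA belongs, AAGGTCA of the oestrogen-related receptors, AAGATGG of YY1, CCAAT and the GC box GGGCGG. NRF1, GABPA, the oestrogen-related receptors and YY1 are known regulators of nuclear genes for mitochondrial proteins. A window was found for 35 of the 49 members. NRF1's core was present in 8 of them (22.9%), Uqcrc1, Uqcr11 and Cycs included, against 7.28% of the 8209 tested genes with a window. The ETS motif was present in 11 (31.4% against 20.5%), among them Uqcrh, Atp5k and Sdhd, and the receptor motif in 5 (14.3% against 3.05%). CCAAT was present in 21 (60% against 39.7%), YY1's motif in 3 (8.57% against 7.95%) and the GC box in 13 (37.1% against 67.1%). Over all 27025 windows, genes that were not tested included, the shares were 3.64% for NRF1's core, 9.12% for the ETS motif, 4.66% for the receptor motif, 37.9% for CCAAT, 6.48% for YY1's motif and 35.9% for the GC box. NRF1's core appeared in members of either direction, and its matches in Uqcrc1 and Uqcr11 are not wholly inside the printed stretches. Overlapping matches of different motifs were counted for each. A match is a run of letters and does not show binding.

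Complex II, succinate dehydrogenase, had 3 of its 4 subunit genes at higher means in TKO-labelled embryos and a median log2 difference of 0.14. Sdhd, one of the membrane anchors, was at 212, 207, 211 and 263 RPKM in TKO-labelled embryos 1 to 4, against 209, 178, 185 and 158 RPKM in Control embryos 1 to 4. TKO-labelled embryo 4 stood highest, and the lowest TKO-labelled value lay just under the highest Control value. Its log2 difference was 0.29 (SE 0.12, limma adjusted p = 0.255, exact permutation p = 0.0571). The iron-sulfur subunit gene Sdhb was at 129.6, 143, 154 and 168 RPKM in TKO-labelled and 144, 127, 140.1 and 99.2 RPKM in Control embryos, a difference of 0.23 (limma adjusted p = 0.413). The flavoprotein gene Sdha, which holds the catalytic site, varied least of the 4, at 77.9, 74.8, 77.1 and 77.05 RPKM in TKO-labelled and 79.1, 76.2, 74.4 and 68.6 RPKM in Control embryos, with a log2 difference of 0.04 (95% confidence interval -0.16 to 0.24). That of Sdha was negative after median-ratio scaling (-0.06) and quantile normalization (-0.07). The other anchor gene, Sdhc, was at 43.1, 49.3, 54.5 and 51.96 RPKM in TKO-labelled and 55.8, 47.05, 53.3 and 61.2 RPKM in Control embryos, a difference of -0.12 (limma adjusted p = 0.598). The summed RPKM of the complex was 498 ± 43.5 in TKO-labelled and 439 ± 42.4 in Control embryos (SD, n = 4 each).

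Complex III, which passes electrons from ubiquinol to cytochrome c, divided by the size of its subunits. All 4 genes for its core and catalytic proteins had positive differences (median 0.45), and all 5 genes for its small supernumerary proteins had negative ones (median -0.29). The counts were the same after median-ratio scaling and quantile normalization. After a trend on coding length and level had been removed, Uqcrfs1 was negative among the core genes and Uqcr11 and Uqcrq were positive among the small ones, and with TKO-labelled embryos 1 and 4 left out Uqcrb was positive. The core gene Uqcrc1 was at 171, 116, 128 and 197 RPKM in TKO-labelled embryos 1 to 4, against 113, 87.4, 91.2 and 87.5 RPKM in Control embryos 1 to 4. Every TKO-labelled value lay above every Control value, with embryos 4 and 1 far above the other TKO-labelled embryos. Uqcrc1 averaged 153 ± 37.8 RPKM in TKO-labelled and 94.8 ± 12.4 RPKM in Control embryos (SD, n = 4 each), a log2 difference of 0.66 (SE 0.17, limma adjusted p = 0.157, exact permutation p = 0.0286) with a 95% confidence interval of 0.28 to 1.04. With TKO-labelled embryos 1 and 4 left out it was 0.37.

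Uqcrc2, the second core protein, was at 84.3, 95.7, 91.1 and 123 RPKM in TKO-labelled embryos 1 to 4, against 83.2, 72.9, 67.8 and 65.4 RPKM in Control embryos 1 to 4. The groups met at 84.3 and 83.2 RPKM without overlap, and the log2 difference was 0.43 (SE 0.13, limma adjusted p = 0.182, exact permutation p = 0.0286). Cyc1, the haem-carrying cytochrome c1, was at 229, 127, 156 and 211 RPKM in TKO-labelled and 143, 141, 119 and 106 RPKM in Control embryos. Its TKO-labelled embryos 1, 3 and 4 lay above all Control embryos and embryo 2 lay among them. The log2 difference was 0.47 (SE 0.19, limma adjusted p = 0.237, exact permutation p = 0.114), or 0.16 with TKO-labelled embryos 1 and 4 left out. Uqcrfs1, the Rieske iron-sulfur protein, was at 149 to 189.5 RPKM in TKO-labelled and 139 to 156 RPKM in Control embryos, a difference of 0.14 (limma adjusted p = 0.513).

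Among the small subunits Uqcr11, whose coding sequence is the shortest of complex III, was at 612, 557, 706 and 545 RPKM in TKO-labelled embryos 1 to 4, against 875, 739, 709 and 754 RPKM in Control embryos 1 to 4. Every TKO-labelled value lay below every Control value, with TKO-labelled embryo 3 nearest at 706 against 709 RPKM. Its log2 difference was -0.35 (SE 0.12, limma adjusted p = 0.204, exact permutation p = 0.0286). Uqcrh, the hinge protein that helps cytochrome c bind, was at 595, 804, 824 and 584 RPKM in TKO-labelled and 917, 1003, 875 and 853 RPKM in Control embryos. The groups did not overlap, TKO-labelled embryos 1 and 4 lay lowest, and the difference was -0.39 (SE 0.14, limma adjusted p = 0.215, exact permutation p = 0.0286), or -0.16 with those embryos left out. Uqcrb, which binds next to the ubiquinone pocket, was at 519, 915, 912 and 683 RPKM in TKO-labelled and 965, 930.2, 769 and 841 RPKM in Control embryos, with only TKO-labelled embryos 1 and 4 below the Control range. Its log2 difference was -0.24 (limma adjusted p = 0.506), and 0.07 with those embryos left out. Uqcr10 and Uqcrq had differences of -0.29 and -0.21, with overlapping groups.

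The ratio of the mean RPKM of the core genes to that of the small genes was 0.295, 0.189, 0.186 and 0.323 in TKO-labelled embryos 1 to 4, against 0.152, 0.141, 0.151 and 0.145 in Control embryos 1 to 4. The groups did not overlap, and the 4 Control embryos lay close together. This ratio of long over short genes was not a planned result. Other highly expressed genes also differed with coding length, as given below, and the part of length in the ratio was not tested. The summed RPKM of complex III was 3667 ± 294 in TKO-labelled and 4195 ± 353 in Control embryos, and its small genes carried most of the sum. Cytochrome c itself, Cycs, the mobile carrier between complexes III and IV, was at 229, 329, 310.3 and 298 RPKM in TKO-labelled and 329, 285, 272 and 282 RPKM in Control embryos. The groups overlapped, with a difference of -0.01 (95% confidence interval -0.30 to 0.28).

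**Figure D2:**
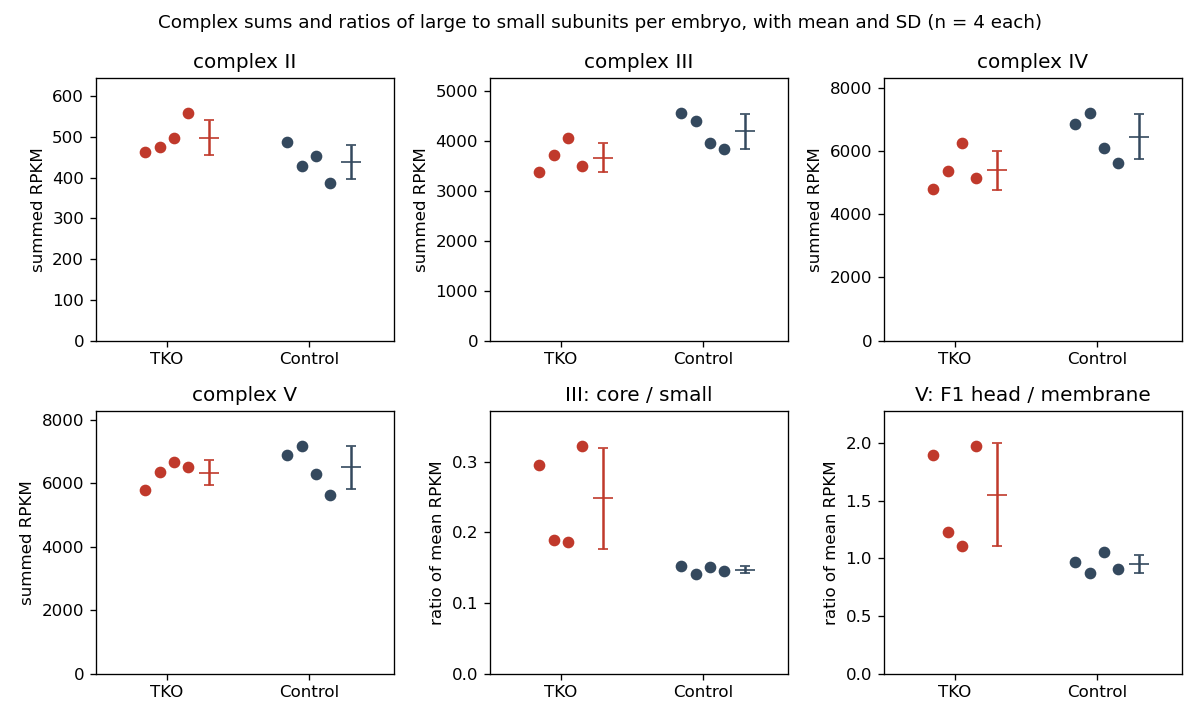
Summed RPKM of the subunit genes of complexes II to V, untested ones included, and 2 ratios of mean RPKM (core over small genes in complex III, F1 head over membrane genes in complex V), in 4 TKO-labelled (red) and 4 Control (dark blue) embryos, with mean and SD. The sums overlap between the groups, and both ratios are higher in all 4 TKO-labelled than in any Control embryo. Both set genes of 800 bases or more over genes under 400 bases. Other tested genes over 50 RPKM also differed with coding length. Their median log2 difference was -0.19 under 400 bases and 0.16 at 800 bases or more. The part of length in these ratios was not tested.

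Complex IV, cytochrome c oxidase, had negative differences in all 12 of its tested genes, with a median of -0.26. The count was also 12 after median-ratio scaling and quantile normalization, 11 without TKO-labelled embryo 2, and 10 after a trend on coding length and level had been removed. At an unadjusted limma p under 0.05, 5 of the 12 had lower values, against 3.6% of all tested genes. Lower values without overlap were found in 1 of the 12, against 1.86% of all tested genes. Most of the 12 have coding lengths under 400 bases. Among 254 other tested genes over 50 RPKM and under 400 bases, 57 had lower values at that p. Lower values without overlap were found in 29 of those 254. The catalytic subunits of this complex come from the mitochondrial genome, so all 12 encode accessory subunits, with coding lengths of 189 to 507 bases. The summed RPKM of all 16 complex IV genes, the untested ones included, was 5379 ± 618 in TKO-labelled and 6448 ± 720 in Control embryos (SD, n = 4 each), a difference of -16.6%. By embryo the sums were 4793, 5357, 6239 and 5128 RPKM in TKO-labelled and 6862, 7208, 6100 and 5621 RPKM in Control embryos. TKO-labelled embryo 3 lay inside the Control range and the other 3 lay below it.

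Cox7a1, the isoform of subunit 7a known from heart and muscle, was at 11.01, 10.002, 11.02 and 9.30 RPKM in TKO-labelled embryos 1 to 4, against 21.7, 14.4, 15.97 and 13.3 RPKM in Control embryos 1 to 4. Its 4 TKO-labelled values lay within 2 RPKM of each other, below every Control value, while Control embryo 1 stood high. The log2 difference was -0.59 (SE 0.15, limma adjusted p = 0.156, exact permutation p = 0.0286), and -0.46 without Control embryo 1. Cox6c, a ubiquitous small subunit, was at 546, 769, 811 and 651 RPKM in TKO-labelled and 872, 1056, 895 and 797 RPKM in Control embryos. Only the TKO-labelled embryo 3 reached the Control range, and the difference was -0.39 (SE 0.15, limma adjusted p = 0.226, exact permutation p = 0.0571), or -0.19 with TKO-labelled embryos 1 and 4 left out. Cox6b2, the testis isoform of the intermembrane subunit 6b, was at 6.84, 4.66, 8.76 and 7.47 RPKM in TKO-labelled and 9.02, 9.18, 13.5 and 8.75 RPKM in Control embryos, a difference of -0.49 (SE 0.19, limma adjusted p = 0.227, exact permutation p = 0.0571). Its groups overlapped narrowly, with the highest TKO-labelled value at 8.76 RPKM and the lowest Control value at 8.75 RPKM.

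Cox7c was at 316, 489, 576 and 354 RPKM in TKO-labelled and 624, 742, 493 and 539 RPKM in Control embryos, with TKO-labelled embryos 1 and 4 far below the rest and a difference of -0.49 (limma adjusted p = 0.247), or -0.16 with those embryos left out. Cox6b1, the ubiquitous form of 6b, was at 457, 448, 582 and 477 RPKM in TKO-labelled and 628, 606, 566 and 567 RPKM in Control embryos, a difference of -0.28 (limma adjusted p = 0.248). Cox4i1, which binds ATP and ADP, was at 870.0, 942, 1019 and 922 RPKM in TKO-labelled and 1325, 1232, 1046 and 895 RPKM in Control embryos, a difference of -0.25 (limma adjusted p = 0.369). Control embryo 4 lay inside the TKO-labelled range. The other ubiquitous accessory subunit genes, Cox5a, Cox5b, Cox6a1, Cox7a2, Cox7b and Cox8a, had differences of -0.15, -0.15, -0.12, -0.31, -0.25 and -0.23, with overlapping groups. Cox4i1 overlaps Cox4nb head to head on GRCm38, and the use of strand in counting is not stated in the sources, so their reads cannot be told apart where they overlap.

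Subunits 4, 6a, 6b, 7a, 7b and 8 come as alternative isoforms, one ubiquitous and others of certain tissues. The ubiquitous isoform held nearly all of the summed RPKM of its pair in every embryo. Cox7a1 held 3.24, 1.79, 1.98 and 2.23% of the subunit 7a total in TKO-labelled and 3.78, 2.12, 2.87 and 2.71% in Control embryos. These shares overlapped, and their difference of -0.56 percentage points was -0.26 points without Control embryo 1 and -0.87 points without TKO-labelled embryo 1. Cox7a2, the ubiquitous form, was at 329, 549, 547 and 407 RPKM in TKO-labelled and 552, 667, 540.4 and 478 RPKM in Control embryos, lowest in TKO-labelled embryos 1 and 4, and its difference was -0.02 with them left out. Cox6b2 held 1.38 ± 0.24% of subunit 6b in TKO-labelled and 1.69 ± 0.43% in Control embryos (SD, n = 4 each), a difference of -0.31 percentage points, or -0.094 points without Control embryo 3 and -0.19 points without TKO-labelled embryo 2. Cox4i2, an isoform induced by low oxygen in lung, was at 0.554, 0, 0.216 and 0 RPKM in TKO-labelled and 0.416, 0.552, 0.33 and 0.287 RPKM in Control embryos. Cox7b2, known from testis, was at 2.41, 0, 0.965 and 0.94 RPKM in TKO-labelled and 0.446, 1.97, 1.18 and 0.128 RPKM in Control embryos. Cox8c, also known from testis, was at 0, 0.148, 0.33 and 0 RPKM in TKO-labelled and 0, 0.281, 0.336 and 0 RPKM in Control embryos, and Cox6a2, the heart and muscle isoform, was listed above 0 only in TKO-labelled embryo 3 (0.159 RPKM).

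Complex V had 8 positive and 7 negative differences among its 15 genes and a median of 0.05. After median-ratio scaling the counts were 6 and 9. The F1 head carries the catalytic sites, and its genes Atp5a1 and Atp5b were higher in every TKO-labelled embryo than in any Control embryo. Atp5b, the catalytic beta subunit, was at 759, 694, 693 and 877 RPKM in TKO-labelled embryos 1 to 4, against 645, 619.5, 553 and 481 RPKM in Control embryos 1 to 4, a log2 difference of 0.40 (SE 0.13, limma adjusted p = 0.189, exact permutation p = 0.0286). Atp5a1, the alpha subunit, was at 363, 341, 360.3 and 405 RPKM in TKO-labelled and 314, 335, 327 and 279 RPKM in Control embryos, a difference of 0.23 (SE 0.10, limma adjusted p = 0.294, exact permutation p = 0.0286). That of Atp5a1 was 0.12 after median-ratio scaling and with the length trend removed, and 0.035 with the length and level trend removed.

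The gamma subunit Atp5c1 forms the rotating shaft inside the head and was at 246, 270.1, 238 and 330.1 RPKM in TKO-labelled embryos 1 to 4, against 229.8, 223, 193 and 160.5 RPKM in Control embryos 1 to 4. The groups did not overlap, and the difference was 0.43 (SE 0.15, limma adjusted p = 0.204, exact permutation p = 0.0286). The other genes of the central stalk, Atp5d (delta) and Atp5e (epsilon), had differences of 0.06 (limma adjusted p = 0.878) and -0.32 (limma adjusted p = 0.291). Atp5d was negative after median-ratio scaling. In the peripheral stalk, which holds the head still, Atp5f1, Atp5h, Atp5o and Atp5j had differences of 0.21, -0.21, 0.05 and 0.30, all with overlapping groups. Atp5j was at only 11.2 to 17.96 RPKM in TKO-labelled and 7.74 to 14.5 RPKM in Control embryos, far below the other stalk genes. It overlaps Gabpa head to head on GRCm38, and how the authors counted reads shared by overlapping genes is not stated in the sources.

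The ring of c subunits, whose turning drives ATP synthesis, comes from 3 genes that encode the same mature protein behind different import signals. Atp5g1 held 21.9, 22.0, 22.4 and 25.4% of their summed RPKM in TKO-labelled embryos, against 21.2, 19.9, 19.1 and 19.0% in Control embryos. The shares did not overlap. Atp5g2 held 28.1 ± 2.51% in TKO-labelled and 28.4 ± 2.37% in Control embryos, and Atp5g3 held 49.0 ± 4.14% in TKO-labelled and 51.8 ± 2.30% in Control embryos (SD, n = 4 each). The difference of Atp5g3's share, -2.81 percentage points, was -0.784 points without TKO-labelled embryo 4. In RPKM the 3 genes overlapped between the groups, with differences of 0.12, -0.10 and -0.17 for Atp5g1, Atp5g2 and Atp5g3.

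The small membrane subunits e, f and g, which join ATP synthases into dimers at the cristae, had negative differences for all 3 genes (median -0.28). Atp5k (e) was at 221, 354, 374 and 238 RPKM in TKO-labelled embryos 1 to 4, against 427, 463, 336 and 399 RPKM in Control embryos 1 to 4, a difference of -0.48 (SE 0.18, limma adjusted p = 0.231, exact permutation p = 0.0857). TKO-labelled embryos 1 and 4 lay below every other embryo. With both left out the difference of Atp5k was -0.15. Atp5j2 (f) and Atp5l (g) had differences of -0.28 and -0.26, and that of Atp5j2 was positive without those embryos. The ratio of mean RPKM of head genes to membrane genes was 1.90, 1.23, 1.11 and 1.98 in TKO-labelled embryos, against 0.967, 0.873, 1.06 and 0.909 in Control embryos, with no overlap. It also sets long over short genes and was not a planned result. The summed RPKM of complex V was 6332 ± 385 in TKO-labelled and 6498 ± 686 in Control embryos.

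None of the 4 members that are not subunits reached an unadjusted limma p under 0.05. Cox7a2l, a gene known from work on supercomplexes of complexes III and IV, was at 152, 212, 197 and 182 RPKM in TKO-labelled embryos. Its Control values were 219.8, 197, 238 and 214 RPKM, a difference of -0.23 (limma adjusted p = 0.342). Its function in embryos of this strain was not examined. Cox4nb, also known as Emc8 and part of a membrane protein insertase of the endoplasmic reticulum, was at 30.7 to 42.6 RPKM in TKO-labelled and 26.004 to 34.8 RPKM in Control embryos, a difference of 0.16. Atp5s, known as coupling factor B, was at 7.44 to 8.59 RPKM in TKO-labelled and 5.67 to 8.47 RPKM in Control embryos, a difference of 0.23. Atp5sl, known as Dmac2 and needed for the assembly of complex I, was at 3.21 to 9.70 RPKM in TKO-labelled and 4.76 to 6.47 RPKM in Control embryos, a difference of 0.04. Many subunit genes, Uqcrh, Atp5k and Atp5l among them, have processed pseudogenes, and how reads shared with such copies were counted is not given, so levels of these genes are uncertain to that extent.

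**Figure D3:**
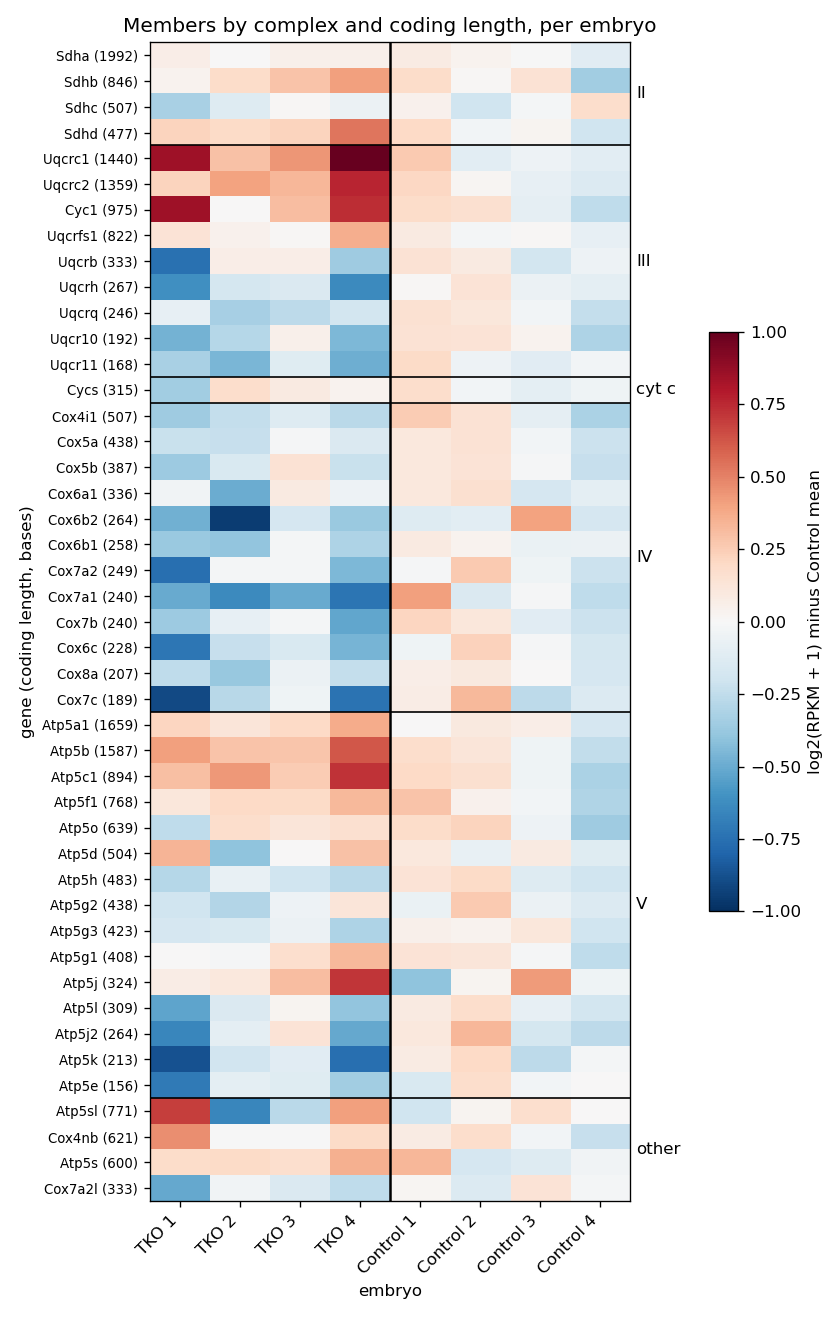
Log2(RPKM + 1) minus the Control mean (colour, red higher and blue lower, cut at 1 and -1) for the 45 tested members (rows, by complex and then by falling coding length in bases) in 4 TKO-labelled embryos (left) and 4 Control embryos (right). In complexes III and V most long genes are red and most short genes blue in TKO-labelled embryos 1 and 4, with Atp5j an exception, while complex IV is mostly blue.

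The differences followed coding length (GENCODE M21 on GRCm38), with classes set after the values had been seen and no test made on them. Of 22 members under 400 bases, 21 had negative differences, with a median of -0.28, and the exception was Atp5j. Of 14 members of 400 to under 800 bases, 8 were positive (median 0.05). All 9 members of 800 bases or more were positive, with a median of 0.40, where Sdha was negative after median-ratio scaling and quantile normalization. Across the 45 members Pearson's r between log2 coding length and log2 difference was 0.816, which describes genes that share the same 8 libraries.

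Other genes differed with length in the same direction. Among tested genes with a mean over 50 RPKM, the members left out, the median log2 difference was -0.19 for 254 genes under 400 bases, 0.09 for 521 genes of 400 to under 800 bases and 0.16 for 602 genes of 800 bases or more. Pearson's r was 0.402 over these 1377 genes and 0.108 over all 10017 other tested genes with a coding length. When a trend on coding length and level over all genes was subtracted in each embryo, an alternative added after seeing the data, the median was -0.09 for short members and 0.20 for long members. That of the complex III core genes was then 0.28, that of its small genes -0.003 and that of complex IV -0.10. For Uqcrc1 the log2 difference was then 0.49, for Atp5b 0.20, for Uqcr11 0.02 and for Cox7a1 -0.54. With a trend on coding length alone removed, also added after seeing the data, the medians were -0.17 for short members, 0.29 for long members, 0.34 for the complex III core genes, -0.13 for its small genes and -0.18 for complex IV. The differences were then 0.55 for Uqcrc1, 0.29 for Atp5b, -0.13 for Uqcr11 and -0.47 for Cox7a1. The median of all tested genes was then also lower, at 0.009, and at 0.002 with the length and level trend removed, against 0.09 before. Median-ratio scaling alone gave medians of -0.38 for short and 0.29 for long members. For complex III they were 0.35 for the core and -0.39 for the small genes. The part of length in these changes, apart from that shift of all genes, was not tested.

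**Figure D4:**
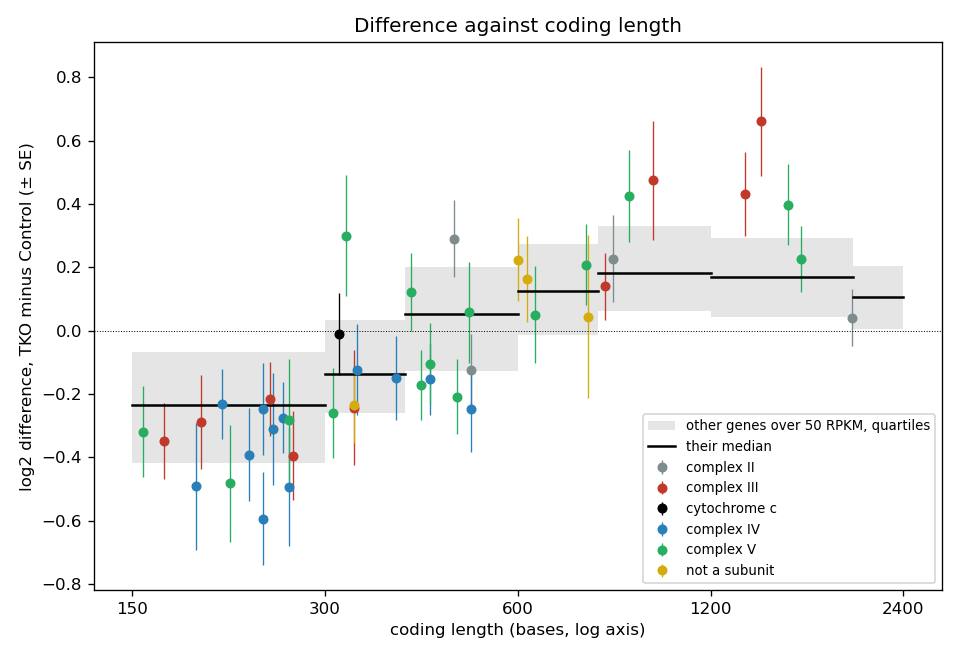
Log2 difference, TKO-labelled minus Control (y axis, with SE), of the 45 tested members against coding length in bases (x axis, log scale), coloured by complex. Grey boxes and black lines give the quartiles and median of the other tested genes over 50 RPKM in length bins. Members under 400 bases lie below 0, apart from Atp5j, and those of 800 bases or more above it, while the other genes run the same way, with a median of 0.17 at 1200 to 1999 bases against 0.40 for the members.

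Length and embryo went together. Relative to the Control mean, the median deviation of members under 400 bases was -0.50, -0.19, -0.03 and -0.38 in TKO-labelled embryos 1 to 4, against 0.09, 0.12, -0.05 and -0.15 in Control embryos 1 to 4. For the members of 800 bases or more it was 0.22, 0.18, 0.28 and 0.62 in TKO-labelled and 0.18, 0.03, -0.05 and -0.17 in Control embryos. The short members were thus lowest in TKO-labelled embryos 1 and 4, which had the lowest estimated depths of the 8 (9.9 and 11.7 M reads). The same embryos also had the highest summed epiblast markers of the 8, at 811 and 618 RPKM. TKO-labelled embryos 2 and 3 were at 466 and 396 RPKM and Control embryos at 388 to 538 RPKM. Depth and tissue makeup cannot be told apart here. Control embryo 3, next in estimated depth at 12.4 M reads, deviated by -0.05 in the short members. It also had the fewest genes listed at 0 of the 8, at 2186 against 3227 to 4942 in the others. Its rank by estimated depth thus differed from its rank by genes detected. Other genes under 400 bases with a mean over 50 RPKM deviated by -0.37, -0.10, -0.06 and -0.20 in TKO-labelled embryos 1 to 4. In Control embryos 1 to 4 they deviated by 0.03, 0.15, -0.075 and -0.10. Such genes of 800 bases or more deviated by 0.13, 0.17, 0.07 and 0.28 in TKO-labelled embryos. Their Control values were 0.11, 0.05, -0.11 and -0.02. With TKO-labelled embryos 1 and 4 left out, which was also decided after seeing the data, 2 members had higher and 2 lower values at the unadjusted p (4.44% each), against 9.06% and 3.69% of all genes tested that way, and the medians were -0.13 for short and 0.23 for long members. RPKM depends on the gene length and read total the authors used. The part of length, depth, tissue makeup or RNA quality in these differences was not tested.

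Genes that build these complexes were compared beside them. Of 36 assembly factors in a list for complexes II to V, 22 were tested, of which 17 had positive and 5 negative differences, with a median of 0.10. None passed the adjusted threshold by limma, and at the unadjusted p 7 had higher and 1 lower values, against 13.9% and 3.6% of all tested genes. Over all tested genes 6949 differences were positive and 3502 negative, with a median of 0.09. After median-ratio scaling the median was 0.006 for the assembly factors and also 0.006 for all tested genes. Cox19, which carries copper toward complex IV, was at 29.7, 30.6, 32.5 and 32.6 RPKM in TKO-labelled embryos 1 to 4, against 23.5, 22.9, 22.2 and 19.8 RPKM in Control embryos 1 to 4. The groups did not overlap, the spread within each was small, and the log2 difference was 0.49 (SE 0.10, limma adjusted p = 0.128, exact permutation p = 0.0286). The coding length of Cox19 is 276 bases. Atpaf2, which assembles the F1 head, was at 21.6, 20.1, 20.8 and 25.3 RPKM in TKO-labelled and 18.5, 13.02, 15.7 and 13.9 RPKM in Control embryos, also without overlap, a difference of 0.50 (SE 0.13, limma adjusted p = 0.156, exact permutation p = 0.0286).

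Of the regulators of nuclear and mitochondrial genes for respiration 16 were tested, with 9 positive and 7 negative differences, a median of 0.07 and none past the adjusted threshold by limma (2 higher and 1 lower at the unadjusted p, against the same 13.9% and 3.6%). After median-ratio scaling their median was -0.03. Esrra, the oestrogen-related receptor alpha, was at 10.97, 10.05, 10.7 and 10.8 RPKM in TKO-labelled embryos 1 to 4, against 13.6, 14.04, 12.6 and 14.8 RPKM in Control embryos 1 to 4. All TKO-labelled values lay below all Control values, a difference of -0.34 (SE 0.10, limma adjusted p = 0.173, exact permutation p = 0.0286). Gabpb1, the partner of the ETS factor GABPA, was at 14.1, 14.9, 10.9 and 16.1 RPKM in TKO-labelled and 8.16, 11.3, 9.78 and 10.7 RPKM in Control embryos, with a difference of 0.44 (SE 0.14, limma adjusted p = 0.19, exact permutation p = 0.0571) and overlap by 1 Control embryo.

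Other protein genes of the organelle were compared in the same way. Complex I, the entry point for electrons from NADH, had 12 positive and 24 negative differences among 36 tested subunit genes, a median of -0.11, and 4 with higher and 9 with lower values at the unadjusted limma p, which 13.9% and 3.6% of all tested genes reached. Ndufv3, an accessory subunit, was at 35.5, 38.97, 41.9 and 32.9 RPKM in TKO-labelled and 57.2, 66.3, 52.3 and 52.2 RPKM in Control embryos, a difference of -0.60 (SE 0.12, limma adjusted p = 0.125, exact permutation p = 0.0286). Ndufa10 was at 117, 94.04, 108 and 128 RPKM in TKO-labelled and 101, 78.9, 69.997 and 69.4 RPKM in Control embryos, a difference of 0.49 (limma adjusted p = 0.173). Their coding lengths in GENCODE M21 are 1404 bases for Ndufv3 and 1065 bases for Ndufa10, so both are long genes. The proteins of the mitochondrial ribosome, which translates the subunits encoded in the organelle, had 51 positive and 25 negative differences among 76 tested genes (median 0.05), with 11 higher and 4 lower at that p. Among them Mrps22 had a difference of 0.49 (limma adjusted p = 0.166) and Mrps12 one of -0.41 (limma adjusted p = 0.171). The genes of the cytosolic ribosome had 14 positive and 60 negative differences among 74 tested genes (median -0.20), with 2 higher and 25 lower at that p. None of these 3 lists held a gene past the adjusted threshold by limma. Over all tested genes 6949 differences were positive and 3502 negative, with a median of 0.09. After median-ratio scaling the medians were -0.21 for complex I, -0.05 for the mitochondrial ribosome and -0.31 for the cytosolic ribosome. That of all tested genes was then 0.01.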

How the data were processed

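Values are RPKM for 21182 gene symbols in 8 embryos, as computed and deposited by the authors. Per the submitters' processing notes, HTSeq (no version) and build mm9 were used. The sources do not give the aligner, the gene lengths, the read total or the use of strand. All columns matched a label, no symbol was repeated and no 2 embryos shared more than 0.069% of their values above 1 RPKM.

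Log2(RPKM + 1) was compared, TKO-labelled minus Control, with limma 3.58.1 in R 4.3.3 (two-sided, variance trend, no block) on the 10451 genes with at least 1 RPKM in at least 4 embryos. P-values were adjusted by Benjamini-Hochberg over all of them and held against 0.05. This scale understates the change of low genes. Replicates are single embryos, and p-values measure their spread only. Single values were also compared by exact permutation over all 70 assignments of embryos. The model was tested on simulated data.

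Depth was estimated from small RPKM values of genes with a single annotated transcript. It is the read total at which the largest share of them, times transcript length, came out as 1 to 3 whole reads. At the estimate 31.0% to 38.3% of low values lay within 2% of 1 to 3 reads, against a median of 1.18% to 1.59% over other totals. Reads were not recovered, so no count test was run.

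Coding lengths came from GENCODE M21 (19683 symbols, 1730 of them by an older symbol). Promoters came from RefSeq on GRCm38.p6, and no coordinates were converted.

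The members, gene lists and tests were chosen with earlier results of these data known. By rule the text names the Tet genes and, in each complex, the 3 members of smallest p and the 3 of highest level. It also names all isoform sets, members at 0 or without overlap, and 2 genes of each other mitochondrial list. These made 31 of the 49 members, and the others are given because every member is accounted for. Alternatives were other pseudocounts, filters, scalings and variance models, a replicate block and leaving out each embryo. Length trends and leaving out the embryos of lowest depth were added after seeing the data. Same-numbered embryos were not paired, with correlations of -0.005, 0.402, 0.265 and -0.021 between their deviations.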

Additional observations from a re-analysis of the deposited data

Results flagged for a closer look

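In groups of 4 embryos, 1 embryo stood apart from the other 3 in 7 of 76 groups examined, where chance marks about 1 in 20. Control embryo 1 had 113.3 RPKM of Uqcrc1, against 87.4 to 91.2 RPKM in the other Control embryos. TKO-labelled embryo 4 had 262.8 RPKM of Sdhd, against 207 to 212 RPKM in the other TKO-labelled embryos. Control embryo 2 had 667.0 RPKM of Atp5g2, against 508 to 535 RPKM in the other Control embryos. Control embryo 3 had 13.52 RPKM of Cox6b2, against 8.75 to 9.18 RPKM in the other Control embryos. The share of Cox6b2 among the subunit 6b genes was 1.029% in TKO-labelled embryo 2, against 1.47% to 1.54% in the other TKO-labelled embryos. That share was 2.335% in Control embryo 3, against 1.41% to 1.52% in the other Control embryos. Cox6a2 was at 0.159 RPKM in TKO-labelled embryo 3 and listed at 0 in the other TKO-labelled embryos.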

How the results depend on the processing

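The count of members past the adjusted limma threshold was 0 in each direction under all 19 alternatives, the replicate block included, which left 5 members with higher and 8 with lower values at the unadjusted p. Over all genes, the 1 with higher values became 2 with a filter at 5 RPKM, with robust variance and with the length trend removed, and 0 with no filter, with the replicate block and with the lowest depth pair (TKO-labelled embryos 1 and 4) left out. The count with lower values was 1 with quantile normalization, with the length trend and with the length and level trend removed. Leaving out 1 embryo gave 0 to 29 genes with higher and 0 to 7 with lower values, 29 and 7 of them without TKO-labelled embryo 1. Members with lower values at the unadjusted p, 8 in all, numbered 20 with median-ratio scaling, 14 with quantile normalization, 4 with the length and level trend removed and 2 with the lowest depth pair left out, where those with higher values also numbered 2. They numbered 3 to 13 when 1 embryo was left out, being 3 without TKO-labelled embryo 1 or 4, 4 without Control embryo 2 and 13 without TKO-labelled embryo 3. The mean log2 difference of the members stayed negative, at -0.17 to -0.02. Of 550 values of 29 single genes under alternatives, 9 had the other sign. Sdha was at -0.060 with median-ratio scaling, -0.066 with quantile normalization, -0.056 with the length trend and -0.113 with the length and level trend removed. That last alternative gave 0.003 for Cox6a1, 0.059 for Cox8a and 0.024 for Uqcr11. Cox6a1 ranged from -0.194 to 0.002 when 1 embryo was left out, positive without TKO-labelled embryo 2, and Uqcrb was at 0.065 with the lowest depth pair left out. Tet1 passed the threshold without TKO-labelled embryo 1 (log2 difference 0.83, limma adjusted p = 0.0315, with 0.0315 as lowest and 0.320 as highest over its alternatives). Over all 45 tested members, 11 had the other sign with the length and level trend removed, 5 with the lowest depth pair left out (and Cox4nb was at 0), 4 with the length trend removed, 4 with median-ratio scaling and 3 with quantile normalization. The causes were not tested. Estimated depth bounds what can be read from members near 0, and the 4 members under the filter have no test.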
